A study of Rattus norvegicus with 35 samples.

Results

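RNA of neonatal rat ventricular myocytes (NRVMs) that had been stretched cyclically for 48 h was compared with RNA of unstretched NRVMs on Affymetrix Rat Genome 230 2.0 arrays. The comparison held 10 of the 35 arrays of the series: 5 arrays of 48 h stretch and the 5 unstretched control arrays whose titles end in the letter b. The study's methods give the set of 24 h and 48 h its own control. That these are the arrays marked b was inferred here, as the labels do not say so in words. The myocytes came from Sprague-Dawley pups of 2 to 4 days, were isolated from both sexes, were enriched by letting other cells attach first, and grew on plates with a flexible bottom that vacuum suction pulled down in cycles. Within a culture the longer stretches were started earlier, so that control and stretched cells were harvested together. One more group of the same experiment, 5 arrays of 24 h stretch, entered the same model and is given where the times differed. The controls differ from the stretched cells in stretch alone as far as the labels tell, and both carry what isolation and serum-free culture do to myocytes of newborn rats. The 5 replicates of a group are biological ones by the study's methods, and p-values measure the spread between these arrays.

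Mechanical load is sensed by myocytes at the sarcomere, at the sites that anchor the cell to its matrix, and through channels and receptors of the membrane. Kinase cascades and transcription factors carry the signal to the nucleus, and a loaded myocyte grows without dividing: it makes more protein, rebuilds its sarcomeres and returns to a set of genes used before birth, among them those of the natriuretic peptides. In failing hearts such growth is known to go with less fatty acid oxidation, changed calcium cycling, fewer repolarizing potassium channels and more matrix.

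The values are intensities after Robust Multichip Average (RMA), a summary of the short probes of a probe set that is linear here and was taken to log2. Array medians were 90.4 to 92.6 at 48 h and 92.7 to 95.8 in controls, and the correlation between arrays of a group was 0.9942 to 0.9977 at 48 h and 0.9909 to 0.998 in controls. Control replicate 5 lay nearer to stretched cells than the other controls did: of the genes counted below as changed at least 1.5-fold, it was the control array nearest to the 48 h arrays in 43.2%. Replicate 4 of the 48 h arrays was the nearest to the controls in 49.8% of them. Cardiomyocyte markers stood at high intensities in every array, with a summed intensity of 154994 to 161283 at 48 h and 179857 to 184566 in controls. Markers of other cell types are given beside some of the results they move with, and some of the markers lay near the lowest intensities of the array. In such cultures fewer cells of a type and less RNA per cell cannot be told apart.

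A probe set was called when limma gave an adjusted p under 0.05 and the fold change reached a limit. At 48 h, 2316 of 31042 probe sets (7.46%) were called at 1.5-fold, 877 of them higher and 1439 lower, and 713 (2.3%) at 2-fold, 247 higher and 466 lower. After 24 h, 904 probe sets had passed the 1.5-fold limit against the same controls. For genes, the brightest probe set that reads a gene alone was taken, which gave 14217 genes. Hereafter a gene rose or fell if its adjusted p was under 0.05. By that rule 3198 genes (22.5%) rose and 2622 (18.4%) fell, and 544 (3.83%) rose and 748 (5.26%) fell by at least 1.5-fold. When each array was centred on its median, 4377 genes rose and 2171 fell, so the balance of small changes rests on the scaling. At 1.5-fold 671 genes were then higher and 644 lower. The 5 stretched arrays did not overlap the 5 control arrays in 4554 genes (32%). The genes are described by 47 lists of pathways and 8 of cell type markers, in which 79 genes stand on several lists. The counts of members are to be read against the 22.5% of all genes that rose and the 18.4% that fell. The lists were chosen with earlier results of these data known, so a share beyond these values describes the list and is no test. The plot of list shares sets the percent of each list beside these values. All folds are 48 h over control unless 24 h is named, and p-values of the main fit are adjusted over all 31042 probe sets. Alternatives that tested means over the probe sets of a gene, or fewer probe sets, are adjusted over what they tested.

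The 15 largest rises and falls were taken from genes that rose or fell at least 1.5-fold. Only genes whose 5 stretched arrays did not overlap the 5 controls were kept, so this separation was fixed by the choice. The largest rises at 48 h were led by Cnn1, which encodes calponin 1, an actin-binding protein of smooth muscle. Its intensities were 841, 531, 748, 950.5 and 416 at 48 h and 73.6, 67.0, 78.5, 92.4 and 163 in controls. The fold change was 7.44 (log2 2.89, standard error 0.375, adjusted p = 1.59e-05). Ildr2, an immunoglobulin-like membrane protein of the angulin family, was at 1337, 1097, 1580.4, 1459 and 1401 at 48 h and 133, 119.5, 218, 186 and 409 in controls, 7.1-fold higher. In both genes control replicate 5 was the highest control, and without it Cnn1 had a log2 fold change of 3.11. Mybl1, the transcription factor A-Myb, was at 1254.5, 1616, 1106, 1069 and 1314 at 48 h and 192, 168, 194, 187.5 and 221 in controls, a 6.57-fold difference with less spread than in Cnn1 (standard error 0.130 on the log2 scale). Bdkrb2, the bradykinin B2 receptor, rose 5.52-fold, but averaged over all of its probe sets its log2 fold change was 1.44 in place of 2.46. The remaining 11 of the 15 largest rises were 3.73-fold to 5.37-fold.

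Among these were Areg and Ereg, which encode amphiregulin and epiregulin, ligands of the EGF receptor, Fosl1, the AP-1 subunit Fra-1, Tgfb2, transforming growth factor beta 2, Il1rl1, the interleukin-33 receptor ST2, and Tnfrsf12a, the receptor of the cytokine TWEAK. Scn3b, an auxiliary subunit of sodium channels, rose 4.22-fold (adjusted p = 3.27e-05). Lmcd1, a LIM domain protein of heart and skeletal muscle, was at 1839, 3488, 1890.5, 1078 and 3230.0 at 48 h and 375.5, 287, 642, 359 and 641 in controls, so that the stretched arrays differed among themselves by more than in most of these genes. Serpinb2, an inhibitor of plasminogen activators, spread as widely, at 258, 237, 433, 107 and 367 at 48 h and 45.4, 51.8, 67.9, 52.4 and 43.9 in controls. Mmp16, a membrane-type matrix metalloproteinase, was narrow in both groups, with 177, 152, 179, 177 and 157 at 48 h and 41.3, 37.5, 42.6, 45.5 and 39.5 in controls (adjusted p = 1.12e-09). Abhd2, a membrane hydrolase of lipids, was 3.89-fold higher. The plot of the largest changes gives all arrays of these genes.

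**Figure D1:**
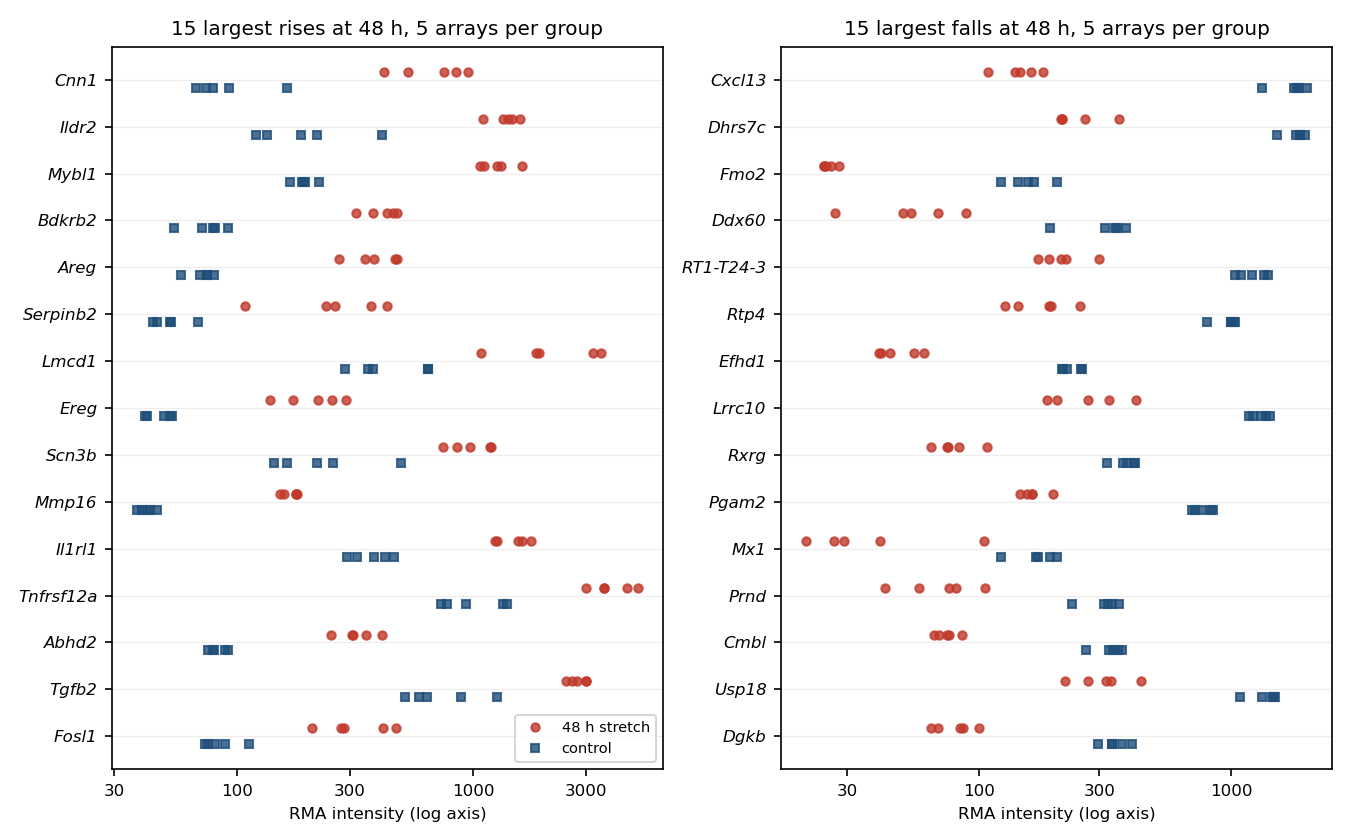
RMA intensity (log axis) of the 15 genes with the largest rises (left) and the 15 with the largest falls (right) at 48 h. Circles are the 5 arrays of 48 h stretch and squares the 5 controls. Only genes whose groups did not overlap were taken, so the groups are apart in every row, by little in Mx1 (highest 48 h array 104.5, lowest control 122.0).

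The largest fall was that of Cxcl13, a chemokine that attracts B cells. It was at 145, 108, 139, 161 and 179 at 48 h and 1818, 1865, 1767, 1997.5 and 1329.6 in controls, which is 0.083 of the control level (log2 -3.59, standard error 0.169, adjusted p = 1.97e-09). Dhrs7c, a short-chain dehydrogenase of the sarcoplasmic reticulum, was at 212.5, 263, 212, 213 and 359.7 at 48 h and 1870.3, 1882, 1804, 1967 and 1518.5 in controls. The groups were far apart, and the level at 48 h was 0.137 of control. Fmo2, a flavin-containing monooxygenase, stood at 24.3 to 27.8 at 48 h and 123 to 204 in controls, and Efhd1, a calcium-binding protein of mitochondria, at 40 to 60.7 at 48 h and 213 to 256 in controls. Lrrc10, a leucine-rich repeat protein made almost only in cardiac myocytes, fell to 0.207 of control, with 326, 186, 272, 420.0 and 204 at 48 h and 1318, 1424.5, 1176, 1369 and 1221 in controls. Pgam2, the muscle form of phosphoglycerate mutase, fell to 0.213, and Rxrg, the gamma form of the retinoid X receptor, to 0.21. For Rxrg the brightest probe set decides this value: over all probe sets of the gene the log2 fold change was -1.04, and a dimmer probe set rose slightly (1.13-fold, adjusted p = 0.0497). Of the 15 largest falls 5 were of genes known to be induced by interferons, namely Ddx60, Rtp4, Mx1, Usp18 and the class I antigen RT1-T24-3. Prnd, a prion-like protein, Cmbl, a carboxymethylenebutenolidase, and Dgkb, a diacylglycerol kinase, completed them at 0.223, 0.224 and 0.23 of control.

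Natriuretic peptides are secreted by loaded myocytes and are the usual readout of the hypertrophic response. Nppa, which encodes atrial natriuretic peptide, was at 16311.5, 14963, 14503, 17729 and 13186 at 48 h and 5228, 3890.3, 6664, 3754 and 12381 in controls. Control replicate 5 was nearly as high as the lowest stretched array, and the fold change of 2.65 (adjusted p = 0.000584) corresponds to a log2 value of 1.41 with this array and 1.68 without it. Nppb, which encodes the B-type peptide, was at 14935, 16949, 14878, 14080.0 and 15721.5 at 48 h and 8004, 6798, 11584, 6911 and 12558 in controls, where replicates 3 and 5 were high. It rose 1.72-fold (adjusted p = 0.000428), a log2 change of 0.79, and of 0.91 without control replicate 5. Corin, the protease that cleaves the precursors of both peptides, moved the other way, with 103, 85, 95.5, 86.8 and 124 at 48 h and 422.5, 368, 362, 432 and 263 in controls, 0.269 of control (adjusted p = 1.12e-07). Among genes that fetal ventricle uses, Myh7, the slow beta myosin heavy chain, rose 1.37-fold (not on its most variable probe set, adjusted p = 0.198) and Myh6, the adult alpha chain, fell to 0.847. Skeletal alpha actin (Acta1) was 1.41-fold of control and did not pass (adjusted p = 0.223), and neither did Ankrd1, an ankyrin repeat protein of the sarcomere that load induces (1.12-fold, adjusted p = 0.0744). Of the peptides' receptors, Npr3, which clears them, fell to 0.724, and Npr1, which makes cyclic GMP, was at 0.943 of control (adjusted p = 0.491).

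Receptors of angiotensin II and endothelin, hormones that act on loaded myocytes, fell. Agtr1a, the angiotensin II type 1a receptor, was at 389, 381, 272, 452 and 300.4 at 48 h and 1439, 1536, 1449, 1621.5 and 1364 in controls, 0.238 of control (log2 -2.07, standard error 0.128, adjusted p = 1.32e-08). Ednra, the endothelin A receptor, was at 404.5, 407, 343, 460.5 and 257 at 48 h and 891, 809.9, 1054, 666 and 891 in controls and fell to 0.431 (adjusted p = 0.000657). Its ligand endothelin-1 (Edn1) was at 75, 69.8, 66.9, 91.5 and 83.6 at 48 h and 60.5, 51.4, 69.8, 58.7 and 83.7 in controls. Control replicate 5 reached the stretched level there, and the 1.2-fold difference did not pass (adjusted p = 0.102), while it did without that array (log2 0.36, adjusted p = 0.0165). Of the 21 measured genes of vasoactive peptide systems, 4 rose (19.0%, near the share of all genes) and 6 fell. Adra1b, an alpha-1 adrenergic receptor, fell to 0.406, Adrb1, the beta-1 receptor, to 0.62, and Ramp2, a partner of the adrenomedullin receptor, to 0.506. Adrenomedullin itself (Adm) rose 1.87-fold, Ramp3, the other receptor partner, 2.4-fold, and Bdkrb1, the inducible bradykinin receptor, 1.39-fold.

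Ligands of the EGF receptor were among the genes that rose most. Among 21 genes of EGF receptor ligands and the feedback on the kinase ERK, 10 rose and 6 fell. Those that rose included 4 ligands: Areg, which was at 379, 475, 349, 269.5 and 464 at 48 h and 69.6, 57.7, 74.6, 74.4 and 79.5 in controls (5.37-fold), Ereg (4.41-fold), Hbegf, the heparin-binding ligand (3.34-fold), and Tgfa, transforming growth factor alpha (2.32-fold). The related ligands Btc and Nrg1 were at 0.914 and 0.962 of control (adjusted p = 0.276 and 0.581), but the most variable probe set of Nrg1 was higher at 48 h (log2 fold change 0.46, adjusted p = 0.00183). The receptor Egfr fell to 0.571 of control (adjusted p = 5.17e-07), as did Spry1, a Sprouty inhibitor of the pathway, to 0.583. Dusp6, a phosphatase of ERK, rose 1.5-fold.

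Of 31 genes of transforming growth factor beta (TGF-beta) and bone morphogenetic protein (BMP) signaling, 19 rose, 14 of them by at least 1.5-fold, and 1 fell. The median log2 fold change of the list was 0.31, and that of all genes 0.04. Among ligands, Tgfb2 was at 2741, 3017.5, 2614, 2481 and 2992 at 48 h and 591, 511, 885, 638 and 1255 in controls (3.76-fold, adjusted p = 1.75e-06). Inhba, the activin A subunit, rose 3.65-fold, Gdf15, a stress cytokine of the family, 3.24-fold, Tgfb3 2.89-fold and Bmp2 2.6-fold, with 776, 987, 579, 656 and 753 for Bmp2 at 48 h and 252, 284, 272, 298 and 319.8 in controls. Tgfb1 rose less, 1.21-fold (adjusted p = 0.00817). Of the extracellular binders, Fstl3, a follistatin-like inhibitor of activin, rose 3.15-fold and Ltbp1, which stores latent TGF-beta in the matrix, 2.88-fold. Target genes inside the cell rose as well, with the inhibitory Smad Smad7 at 1.9-fold and the inhibitors of differentiation Id1 and Id4 at 2.18-fold and 2.82-fold, while Id2 was the member that fell (0.762 of control). Averaged over all of their probe sets, Inhba and Id4 had log2 fold changes of 0.95 and 0.83.

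Transcription factors that are usually induced early and briefly were raised at 48 h in many cases. Of 27 genes listed as immediate early transcription factors, 17 rose, 9 of them by at least 1.5-fold, and 0 fell. Fosl1 was at 275, 416, 284, 208 and 469.7 at 48 h and 72.8, 80.1, 75.2, 89.0 and 112 in controls. Myc, which drives growth and ribosome production, rose 2.55-fold, and Creb5, a factor that binds cyclic AMP response elements, 2.47-fold. Ier3, an early response gene on the list that is not a transcription factor, rose 2.22-fold. Atf3 rose 2.2-fold and Maff, a small Maf protein, 2.1-fold. The genes that define this class were not among them: Fos was 1.19-fold of control (adjusted p = 0.299) and Egr1 1.08-fold (adjusted p = 0.497). Rcan1, a target and inhibitor of the phosphatase calcineurin, rose 2.62-fold and led a list of 22 calcineurin, NFAT and cardiac transcription factor genes, of which 7 rose and 7 fell. Gata6, Mef2a and Hopx, transcriptional regulators of heart muscle, fell to 0.617, 0.712 and 0.501, whereas Gata4 was at 1.1-fold (adjusted p = 0.101).

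The cyclic AMP response element (letters TGACGTCA, which read alike on both strands) was searched in the 300 bases around the start of each gene, 250 before and 50 after it, in RefSeq promoters of build GRCr8. It was present for 27 of 446 genes with a window that rose by at least 1.5-fold (6.05%), for 6 of 597 that fell as much (1.01%), for 335 of 11733 of all genes measured (2.86%) and in 1.83% of all 33469 windows. Stretches from 3 such genes are shown, because they are a ligand, a cytokine and a calcineurin target named here, with the element in capitals.
Areg, GRCr8 chr14:17265685-17265772, minus strand: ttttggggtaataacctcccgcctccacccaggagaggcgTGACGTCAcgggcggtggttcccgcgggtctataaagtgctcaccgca
Il6, GRCr8 chr4:5894690-5894777, minus strand: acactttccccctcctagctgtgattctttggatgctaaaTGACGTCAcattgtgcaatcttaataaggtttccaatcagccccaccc
Rcan1, GRCr8 chr11:45118396-45118483, minus strand: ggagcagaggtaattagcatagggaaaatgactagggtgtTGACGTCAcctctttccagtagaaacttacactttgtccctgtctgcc
Il6, interleukin-6, was at 73.8, 51.8, 224, 59.5 and 65.9 at 48 h and 35.7, 34.1, 28.3, 38.6 and 25.6 in controls. All stretched arrays lay above all controls, and replicate 3 was far above the rest, and the log2 fold change was 1.32 with it (adjusted p = 0.0173) and 0.96 without it (adjusted p = 0.041).

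Of 32 genes linked to serum response factor (SRF) and actin, 20 rose, 10 of them by at least 1.5-fold, and 7 fell (21.9%, near the share of all genes). Cnn1 and Lmcd1 were followed by Actn1, a non-muscle alpha-actinin (3.5-fold, adjusted p = 9.47e-07), Acta2, smooth muscle actin (2.17-fold), Pdlim7 (1.99-fold) and Tagln, transgelin (1.72-fold). Phactr1, a regulator of actin and phosphatase 1, fell to 0.311, Ablim1 to 0.566, Smtn, smoothelin, to 0.641, and Myl9, a smooth muscle light chain, to 0.661. Srf was at 0.901 of control (adjusted p = 0.313). Of 14 markers of smooth muscle and pericytes, 5 rose and 4 fell, and the defining marker Myh11 was at 1.04-fold (adjusted p = 0.502). Their summed intensity was 16708 to 18101 at 48 h and 11706 to 14283 in controls. This sum includes desmin (Des), which sarcomeres of myocytes hold too and which was at 8950.2, 8531.5, 8814, 8685 and 8467 at 48 h and 5054, 5264, 4881, 5343 and 5796 in controls. Without it, a choice made after its values were seen, the other 13 markers summed to 8242 to 9151 at 48 h and 6653 to 8487 in controls, and the groups overlapped. The part of smooth muscle cells in the rise of Cnn1, Acta2 and Tagln was not tested. Of 18 targets of the coactivator YAP, 7 rose, among them Ccn1 (2.32-fold) and Ccn2 (1.95-fold), which encode matricellular proteins, and 2 fell.

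Genes of the sarcomere went both ways. Of 22 genes of titin, Z-disc and M-band, 10 rose and 8 fell. Fhl1, a LIM protein that binds titin, rose 2.07-fold, Pdlim3 1.95-fold, Des, desmin, 1.65-fold, and Tcap and Csrp3, which sit at the Z-disc, 1.56-fold and 1.53-fold. Myom2, the M-protein of the M-band, was at 258.5, 162, 256, 351 and 233 at 48 h and 605, 592, 517, 603 and 544 in controls and fell to 0.428, and Lrrc39 and Myoz1 fell to 0.569 and 0.606. Among 11 myosin chains, Myl7, the atrial regulatory light chain, showed the largest change, with 232.5, 234, 208, 233 and 271 at 48 h and 852, 938, 861, 944 and 816 in controls, 0.267 of control (adjusted p = 5.09e-10), and Myl1 rose 1.89-fold at low intensity (43.4 to 66.5 at 48 h, 25.3 to 30.8 in controls). The ventricular light chain Myl2 was at 0.956 (adjusted p = 0.456). Averaged over all of its probe sets, Myl2 fell (log2 -0.25, adjusted p = 0.0227). Its most variable probe set fell as well (log2 -0.44, adjusted p = 0.0128). Of 14 thin filament genes, 5 rose and 6 fell. Xirp1, an actin-binding repeat protein of the intercalated disc, rose 1.69-fold, and Tnni3, cardiac troponin I, fell to 0.732. Tnnt2, cardiac troponin T, was at 0.956 (adjusted p = 0.286), but fell over all of its probe sets (log2 -0.17, adjusted p = 0.0373).

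Ribosome biogenesis gave the most one-sided rise. The list holds nucleolar factors, RNA polymerase I subunits and assembly factors, and of its 59 measured genes 56 rose, 25 by at least 1.5-fold, and 0 fell. The median log2 fold change was 0.55. Rrp12, an export factor of the small subunit, was at 822, 1049.8, 955, 706 and 1039 at 48 h and 238, 215, 246, 284 and 316 in controls and rose 3.51-fold (adjusted p = 1.38e-07). Gar1 and Nhp2, proteins of the particles that modify ribosomal RNA, rose 2.04-fold and 1.9-fold, Pno1 and Tsr1, which mature the small subunit, 1.97-fold and 1.89-fold, and Heatr1 1.93-fold. Polr1a, the largest subunit of polymerase I, rose 1.32-fold, and Fbl, fibrillarin, 1.63-fold. The 3 members that did not pass were Nop10, Ltv1 and Gnl3l, at 1.02-fold to 1.07-fold. With the most variable probe set of each gene in place of the brightest, 50 members rose.

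In the Myc network, where Myc was at 869.8, 1050.4, 778, 716 and 966 at 48 h and 327, 295, 316, 349 and 425 in controls, 8 of 18 genes rose and 2 fell. The targets Odc1, of polyamine synthesis, Nme1 and Srm rose 1.81-fold, 1.81-fold and 1.78-fold. The partner Max was at 1.02-fold (adjusted p = 0.694), and the antagonist Mxd4 fell to 0.704. The E-box CACGTG, to which Myc and Max can bind along with other factors, also reads alike on both strands. It stood in 19 of 56 promoter windows of ribosome biogenesis genes (33.9%), in 74 of 446 windows of genes that rose at least 1.5-fold (16.6%), in 36 of 597 of those that fell as much (6.03%), in 1046 of 11733 of all genes measured (8.92%) and in 6.42% of all windows. Stretches of 3 of the members with the largest rise follow, with the E-box in capitals.
Rrp12, GRCr8 chr1:250655270-250655355, minus strand: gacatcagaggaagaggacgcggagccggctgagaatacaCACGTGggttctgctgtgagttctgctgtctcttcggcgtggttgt
Pno1, GRCr8 chr14:95819857-95819942, minus strand: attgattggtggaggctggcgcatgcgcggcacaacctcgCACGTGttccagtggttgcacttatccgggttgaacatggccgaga
Tsr1, GRCr8 chr10:60258770-60258839, plus strand: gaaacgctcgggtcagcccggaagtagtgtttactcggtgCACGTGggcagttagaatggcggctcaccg

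**Figure D2:**
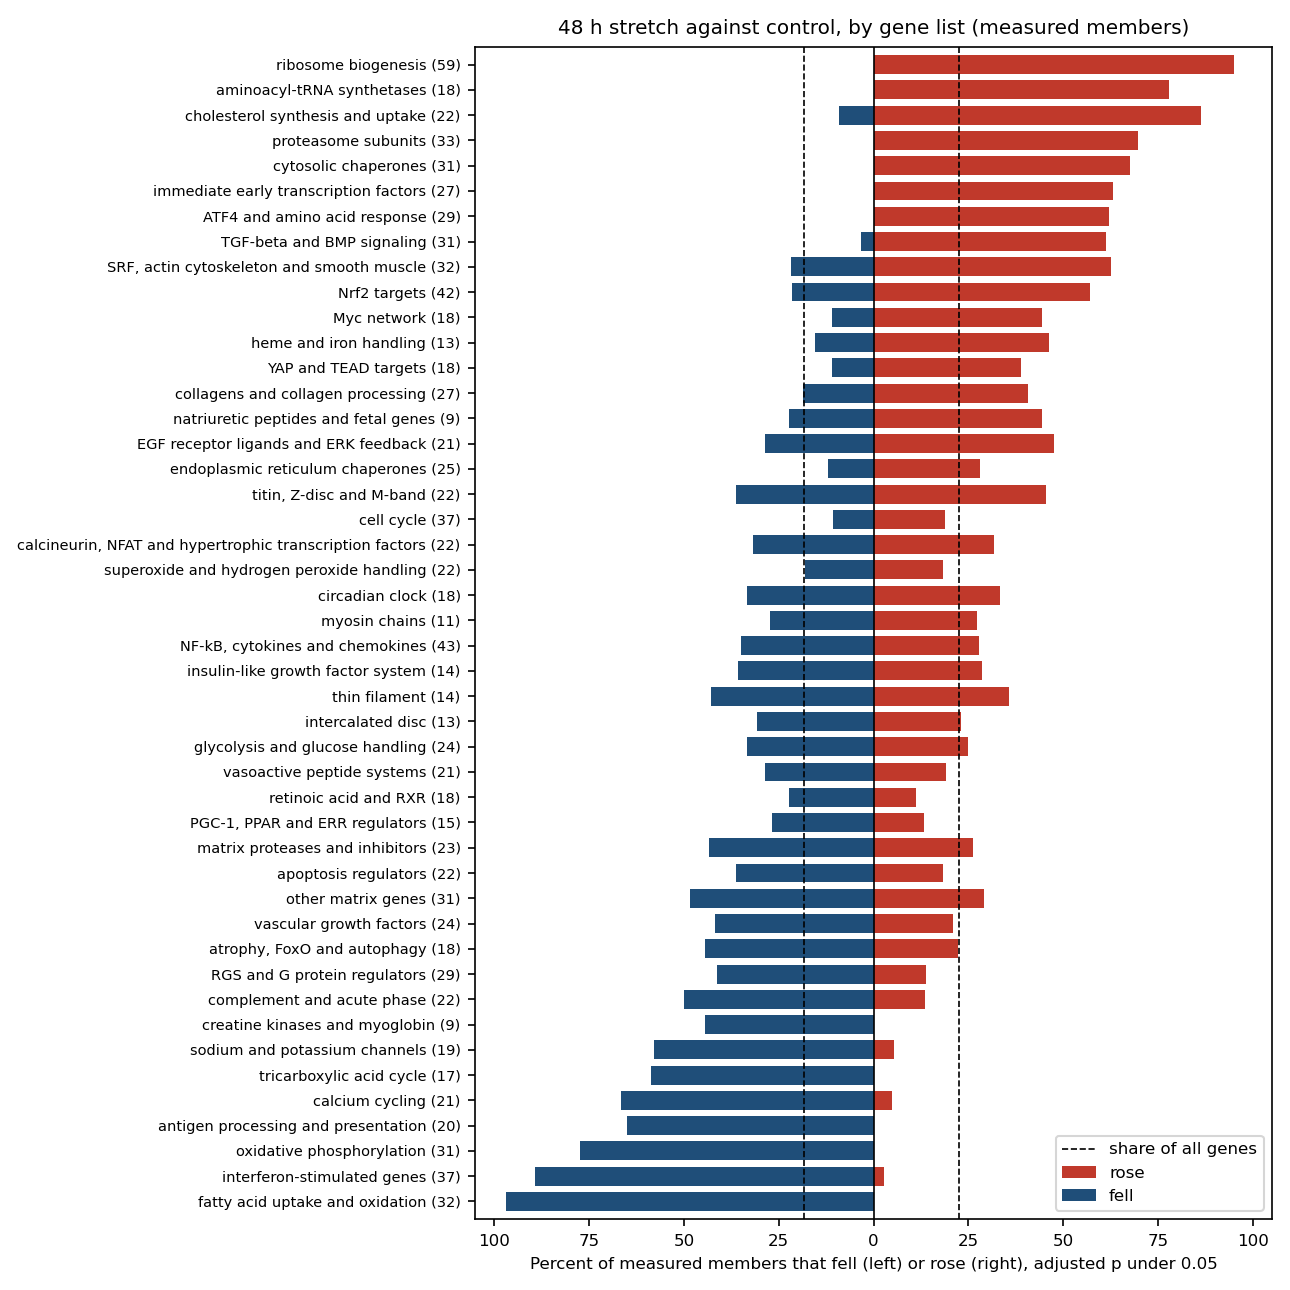
Percent of the measured members of 46 gene lists that rose (right) or fell (left) at 48 h against control, with the number of measured members in parentheses. Dashed lines mark the shares of all 14217 genes, 22.5% that rose and 18.4% that fell. The lists were chosen with earlier results of these data known. Ribosome biogenesis (94.9% rose) and fatty acid uptake and oxidation (96.9% fell) stand at the ends.

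Of 18 cytosolic aminoacyl-tRNA synthetases, which charge tRNAs with amino acids, 14 rose and 0 fell, among them Hars1 (1.51-fold) and Tars1 (1.45-fold, adjusted p = 9.52e-06). With the most variable probe set of each gene 8 rose, and Hars1 was then at a log2 fold change of 0.19 (adjusted p = 0.644). Of 29 genes of the amino acid response to the factor ATF4, 18 rose and 0 fell. Slc7a11, the cystine transporter, rose 2.46-fold, Slc7a3 and Slc7a1, carriers of cationic amino acids, 2.16-fold and 1.62-fold, Shmt2 and Mthfd2, of mitochondrial folate metabolism, 1.89-fold and 1.67-fold, and Atf4 1.31-fold. Trib3, Chac1 and Ddit3, members known from stress of the endoplasmic reticulum, were at 0.972, 1.05 and 0.922 of control (adjusted p = 0.614, 0.695 and 0.108). The amino acid response element, written as TGATGNAA and searched on both strands, stood in 7 of 17 windows of the synthetases (41.2%), in 7 of 25 of the ATF4 list (28%), in 9 of 446 of the genes that rose at least 1.5-fold (2.02%), in 259 of 11733 of all genes measured (2.21%) and in 3.98% of all windows. Stretches of a synthetase and a carrier follow, with the element in capitals. In that of Tars1 it reads from the other strand, and an E-box lies 3′ of it.
Tars1, GRCr8 chr2:62114782-62114869, minus strand: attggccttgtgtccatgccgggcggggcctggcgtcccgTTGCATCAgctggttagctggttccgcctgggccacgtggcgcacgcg
Slc7a1, GRCr8 chr12:11664418-11664505, plus strand: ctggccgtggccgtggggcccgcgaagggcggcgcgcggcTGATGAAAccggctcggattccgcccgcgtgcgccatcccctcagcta

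Of 31 cytosolic chaperones 21 rose and 0 fell, among them Hspa4l (2.41-fold), Dnajb5 (2.04-fold), the inducible Hsp70 Hspa1a (1.96-fold) and the cochaperone Bag2 (1.75-fold). Of 25 chaperones of the endoplasmic reticulum 7 rose and 3 fell, none by 1.5-fold, and the defining member Hspa5 (BiP) was at 1.01-fold (adjusted p = 0.914). With median centring 0 fell, and 1 fell without replicate 1 or 4 of the controls or replicate 2, 3 or 5 of the 48 h arrays. Of 33 proteasome subunits 23 rose and 0 fell, but by little: Psmd8 rose 1.68-fold, Psmd14 1.42-fold, and the median log2 fold change was 0.16. Without replicate 1 of the 48 h arrays 18 rose.

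Of 22 genes of cholesterol synthesis and uptake, 19 rose, 9 by at least 1.5-fold, at a median log2 fold change of 0.51. The rises ran through the pathway, with Idi1 of the isoprenoid steps at 1.95-fold, Sqle, squalene epoxidase, at 1.77-fold, Cyp51 at 1.69-fold and Hsd17b7 at 2-fold. Idi1 was at 7279, 6744, 6914.5, 7054 and 6285 at 48 h and 3616, 3275, 3809, 3187.5 and 3737.5 in controls. Srebf2, the factor that drives the pathway, rose 1.3-fold. The members that fell were Abca1 and Abcg1, which export cholesterol, at 0.561 and 0.77 of control.

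Of 42 targets of Nrf2, the factor that answers oxidants, 24 rose, 11 by at least 1.5-fold, and 9 fell (21.4%, near the share of all genes). Srxn1, sulfiredoxin, rose 2.59-fold, Mgst2 2.54-fold, Akr1b8 2.42-fold, Gclc, which makes glutathione, 1.87-fold, and Nqo1, the quinone reductase that defines the list, 1.83-fold. Abcc3, Aox1 and Gstm2, a transporter, an oxidase and a glutathione transferase, fell to 0.472, 0.477 and 0.578. Nrf2 itself (Nfe2l2) was at 0.95 (adjusted p = 0.252). Hmox1, heme oxygenase, rose 1.58-fold. Of 22 genes for superoxide and hydrogen peroxide, 4 rose and 4 fell (18.2% each way, near the shares of all genes), the largest change being Xdh, xanthine dehydrogenase, at 0.406 of control.

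Neonatal myocytes shift after birth to burning fatty acids, and of 32 genes of fatty acid uptake and oxidation 31 fell, 14 by at least 1.5-fold, with a median log2 fold change of -0.52. Cd36, which takes fatty acids up, was at 1083.5, 1116, 853, 1183 and 779 at 48 h and 2503, 2042, 2659, 1795 and 2037.5 in controls and fell to 0.453 (adjusted p = 0.00134). Hadh, a dehydrogenase of the beta-oxidation cycle, fell to 0.328, although over all of its probe sets the log2 fold change was -0.92 in place of -1.61. Ech1 fell to 0.486, Fabp4 and Fabp3, carriers of fatty acids, to 0.507 and 0.744, Cpt2 and Cpt1b, of the carnitine shuttle, to 0.525 and 0.737, and Pdk4, a kinase that spares glucose, to 0.553. Lpl, lipoprotein lipase, was at 3279, 3340.0, 3178, 3282 and 3736 at 48 h and 6134, 6138.5, 5918, 6450.3 and 5623 in controls, 0.555 of control, with no overlap of the groups. The member that did not pass was Acot1 (0.921 of control, adjusted p = 0.537).

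Of 31 subunits of oxidative phosphorylation, 24 fell and 0 rose, but Cox8b alone passed 1.5-fold (0.445 of control), and the next were Cox7a1 at 0.772 and Ndufa9 at 0.772. The median log2 fold change was -0.22, and with arrays centred on their median 18 fell. Of 17 genes of the tricarboxylic acid cycle 10 fell, none by 1.5-fold, with Idh2 at 0.687. In glycolysis 8 of 24 genes fell and 6 rose. Pgam2 was at 163, 155, 146, 162 and 197 at 48 h and 722, 830.2, 763, 847 and 700.2 in controls, Eno3, muscle enolase, fell to 0.489 and Pfkm, muscle phosphofructokinase, to 0.537, whereas Pgam1, the widely used mutase, rose 1.24-fold and Pfkp, the platelet form, 1.72-fold. Slc2a4, the insulin-sensitive glucose transporter, fell to 0.733, and Slc2a1, the basal one, was at 1.08-fold (adjusted p = 0.228).

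Of 9 genes of the creatine system and myoglobin 4 fell. Mb, myoglobin, the oxygen store of muscle, was at 1479, 1660.5, 1447, 1595 and 1899.7 at 48 h and 4811, 4450.3, 5359, 4961 and 4293 in controls, 0.338 of control (adjusted p = 6.5e-09). Ckm and Ckmt2, the muscle and mitochondrial creatine kinases, fell to 0.453 and 0.579, and Gamt, which makes creatine, to 0.392. Among regulators, Ppargc1a, the coactivator PGC-1 alpha, fell to 0.506 (adjusted p = 4.04e-07), Klf15, a factor of fatty acid use, to 0.294, and Perm1, a muscle-specific partner of PGC-1, to 0.613. Ppara, the receptor that fatty acids activate, was at 0.921 (adjusted p = 0.181), and Esrra rose 1.19-fold. In this list of 15 regulators 26.7% fell, against 18.4% of all genes.

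Of 21 calcium cycling genes 14 fell, 7 by at least 1.5-fold. After Dhrs7c and Efhd1 the largest falls were Hrc, a calcium-binding protein of the reticulum, at 0.391, Trdn, triadin, at 0.537, and the T-type channel Cacna1h at 0.549. Cacna1c, the pore of the L-type calcium channel that triggers contraction, was at 696, 674, 753, 835.5 and 803 at 48 h and 1228.5, 1306, 1127, 1403.5 and 1239.5 in controls, 0.596 of control (adjusted p = 6.6e-07), while its most variable probe set missed the threshold (log2 -0.48, adjusted p = 0.0595). Atp2a2, the calcium pump SERCA2, was at 11975, 12409, 12676, 12109 and 12891 at 48 h and 16206, 16284, 15451, 16683 and 15184.5 in controls and fell to 0.778. Ryr2, the release channel, fell to 0.75 and Pln, phospholamban, to 0.774. Slc8a1, the sodium-calcium exchanger, was at 1.04-fold (adjusted p = 0.453). The one rise was Casq1, the skeletal calsequestrin (1.85-fold, adjusted p = 0.0475), and its call was lost in the one-way analysis of variance and without most of the arrays.

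Of 19 sodium and potassium channel genes 11 fell, 10 of them by at least 1.5-fold, at a median log2 fold change of -0.60. Kcnip2, the subunit that shapes the transient outward current, was at 61.1, 83.7, 54.7, 50 and 91.5 at 48 h and 191, 230.3, 308.5, 264 and 233 in controls. It fell to 0.274, with a log2 value of -1.87 there and of -0.81 over all of its probe sets. Its channel Kcnd2 fell to 0.498, Kcnh2, of the rapid delayed rectifier, to 0.534, Scn4b, a sodium channel subunit, to 0.407, and the subunits of ATP-sensitive channels Abcc8 and Kcnj8 to 0.546 and 0.58. Kcnj8 is also one of the 14 markers of smooth muscle and pericytes, of which 5 rose and 4 fell. The part of these cells in its fall was not tested. Kcnk3, a background potassium channel, rose 1.55-fold. In the intercalated disc, where cells couple, 4 of 13 genes fell and 3 rose (23.1%, near the share of all genes). Gja5, connexin 40, fell to 0.454, Dsp, desmoplakin, to 0.662. Connexin 43 (Gja1), the main gap junction protein of ventricle, fell to 0.893, a call lost when arrays were centred on their median (adjusted p = 0.109). Its call was also lost over all of its probe sets (log2 -0.43, adjusted p = 0.0822). On the most variable probe set it was lost too (log2 -1.13, adjusted p = 0.132), so the size of the change differed between probe sets.

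**Figure D3:**
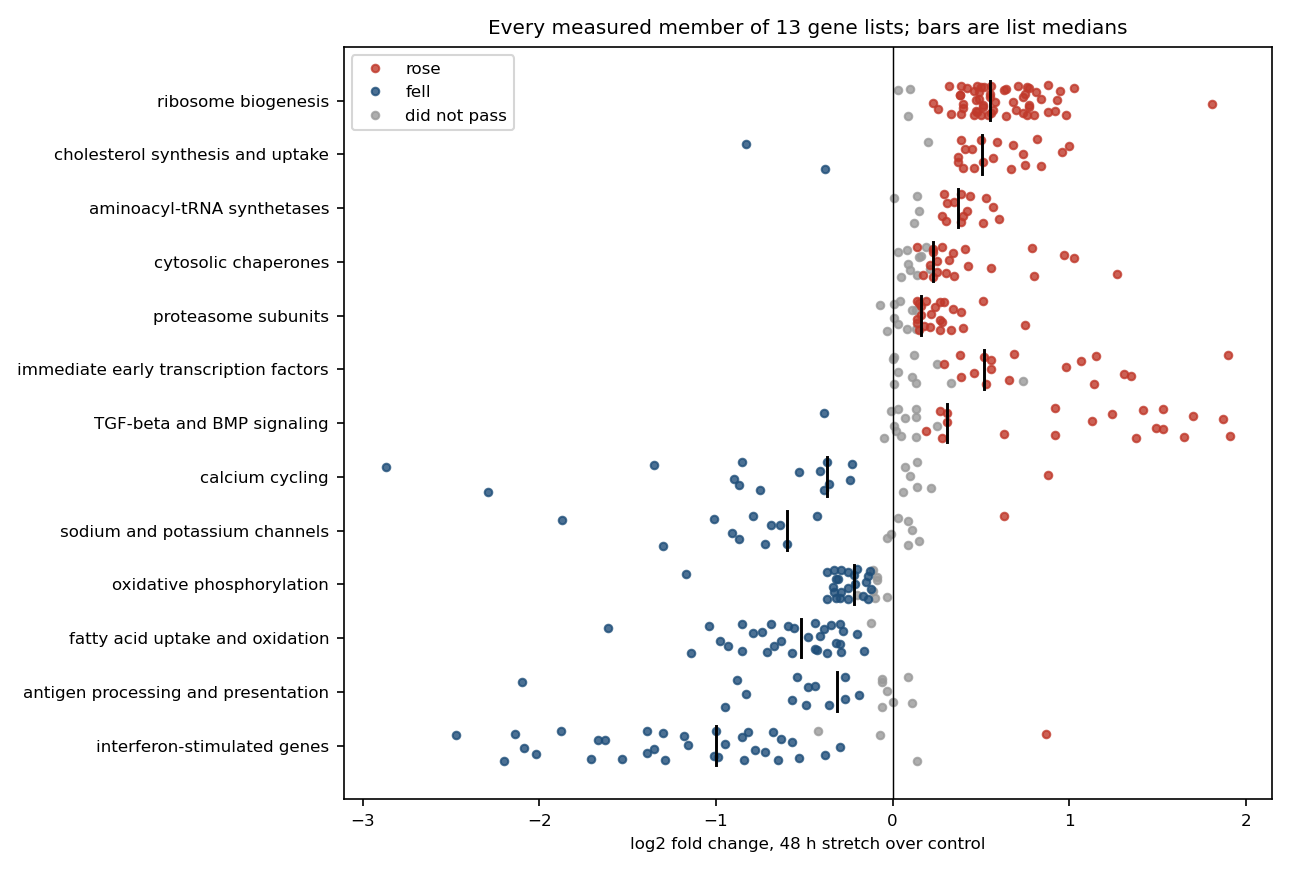
log2 fold change (48 h stretch over control) of every measured member of 13 gene lists, in red where it rose, blue where it fell and grey where it did not pass the test. The vertical bars are list medians, from -1.0 for interferon-stimulated genes to 0.55 for ribosome biogenesis.

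Interferon-stimulated genes formed the list with the largest median change. Cells that sense viral nucleic acids or interferon induce them, and the unstretched control cultures of this set showed them at clear intensities. Ddx60 was at 190.7 to 382.9 in these controls. In the other set of the series Ddx60 lay at 9.57 to 21.0, a range that pools the controls of that set with arrays of shorter stretch. The other genes of the list were not compared between the sets. Of 37 measured genes 33 fell, 29 by at least 1.5-fold, 1 rose, and the median log2 fold change was -1.0. Rtp4, a chaperone of receptors with antiviral action, was at 189, 126.5, 142, 194 and 251 at 48 h and 996.5, 1026, 1031, 998 and 805 in controls (0.181 of control, adjusted p = 1.55e-08). Mx1, an antiviral GTPase, was at 29.2, 20.6, 40.5, 26.7 and 104.5 at 48 h and 168, 204, 171.5, 191 and 122 in controls. Stretched replicate 5 was high there, close to the lowest control, and the level was 0.218 of control. Usp18, which removes the ubiquitin-like protein Isg15, was at 335, 219.9, 318, 271 and 438 at 48 h and 1475, 1489.8, 1321, 1458 and 1081 in controls. Mx2, Oas1a and Ifi44l fell to 0.235, 0.246 and 0.272, and Isg15 to 0.305. Of the transcription factors on the list, Irf7 fell to 0.314, Stat2 to 0.505 and Irf9 to 0.584. Isg20, an exonuclease, was the gene that rose, at 246, 272, 299, 231 and 314 at 48 h and 153, 141, 122, 168 and 160.4 in controls (1.83-fold, adjusted p = 1.06e-05).

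The interferon-stimulated response element, written as GAAANNGAAA and searched on both strands, stood in 18 of 29 promoter windows of these genes (62.1%), in 8 of 17 of antigen presentation genes (47.1%), in 351 of 11733 of all genes measured (2.99%) and in 3.92% of all windows. It stood in 51 of 597 windows of genes that fell at least 1.5-fold (8.54%) and in 11 of 446 of those that rose (2.47%). The stretches shown are of 3 genes that fell and of Isg20, which holds the element and rose, with the element in capitals. Where the capitals begin with TTTC it reads from the other strand.
Oas1a, GRCr8 chr12:41330385-41330474, plus strand: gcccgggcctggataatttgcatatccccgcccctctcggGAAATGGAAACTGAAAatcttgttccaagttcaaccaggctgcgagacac
Ifi44l, GRCr8 chr2:243328592-243328681, plus strand: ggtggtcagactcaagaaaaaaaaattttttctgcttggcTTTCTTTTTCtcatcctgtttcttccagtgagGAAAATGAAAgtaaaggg
Irf7, GRCr8 chr1:205800043-205800132, minus strand: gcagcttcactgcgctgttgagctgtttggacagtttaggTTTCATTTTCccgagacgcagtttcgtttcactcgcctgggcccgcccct
Isg20, GRCr8 chr1:142239927-142240016, plus strand: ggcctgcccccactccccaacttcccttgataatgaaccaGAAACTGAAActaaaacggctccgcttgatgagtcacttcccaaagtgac
In Oas1a 2 overlapping elements make up the capitals, and in Ifi44l 2 separate ones.

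Of 20 genes of antigen processing and presentation 13 fell and 0 rose. Cd74, the invariant chain of class II antigens, was at 59.0, 60.8, 51.4, 57.5 and 58.0 at 48 h and 248, 253, 344, 216 and 189.5 in controls (0.234 of control), and Psmb9 and Psmb8, subunits of the immunoproteasome, fell to 0.516 and 0.561. B2m, the light chain of class I antigens, fell to 0.831. Macrophages carry much of Cd74 and of class II antigens, and their markers moved with these lists: 12 of 17 fell and 0 rose, and their summed intensity was 4503 to 5498 at 48 h and 8087 to 9010 in controls. Cd74 is itself one of the 17, and of the other 16 markers 11 fell, at a summed intensity of 4451 to 5438 at 48 h and 7897 to 8795 in controls. Adgre1, Mrc1 and Cd68 fell to 0.511, 0.455 and 0.596, and Cd163 was near the lowest intensities of the array (14.7 to 19.3 at 48 h, 15.7 to 16.6 in controls). Endothelial markers also fell, 11 of 14 with 1 rise, at a summed intensity of 4091 to 4326 at 48 h and 5173 to 6747 in controls. Pecam1 fell to 0.599, Cldn5 to 0.504 and Kdr, a receptor of vascular endothelial growth factor, to 0.538, and Eng, endoglin, rose 1.3-fold. The part of either cell type in the falls of interferon-stimulated and antigen presentation genes was not tested.

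Of 19 cardiomyocyte markers 12 fell and 2 rose, among which Myl7, Mb and Ckm passed 1.5-fold. The 2 rises became 1 without replicate 1, 3 or 4 of the controls or replicate 1, 3 or 5 of the 48 h arrays. Of 16 cardiac fibroblast markers 8 fell and 2 rose, at a summed intensity of 87735 to 97007 at 48 h and 99707 to 103916 in controls. Pdgfra, a receptor of platelet-derived growth factor, and Dpt, dermatopontin, fell to 0.485 and 0.63, while the collagen I genes Col1a1 and Col1a2 were at 1.08 and 0.959 of control (adjusted p = 0.12 and 0.406). Of 10 mesothelial markers 2 rose, Upk1b 2.03-fold and Krt18 1.44-fold, and Wt1 was at 0.927 (adjusted p = 0.537). Of 5 erythroid and 6 Schwann cell markers 1 each rose, and 1 Schwann cell marker fell, all under 1.5-fold. Leaving out any of 11 arrays took the rise from the erythroid list, and any of 11 that from the Schwann cell list.

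Inflammatory genes went both ways. Of 43 genes of NF-kB, cytokines and chemokines, 12 rose and 15 fell. Besides Il1rl1, which was at 1540.4, 1757, 1229.6, 1264 and 1609.5 at 48 h and 292, 378, 322, 462 and 421 in controls, and Tnfrsf12a, at 3581, 4983, 3595, 2999 and 4494 at 48 h and 927, 774, 1338, 728 and 1389 in controls, Ptgs2, the inducible cyclooxygenase, rose 3.37-fold. Vcam1, an adhesion molecule of leukocytes, fell to 0.308, Il1b, interleukin-1 beta, to 0.526 and Il33, the ligand of Il1rl1, to 0.664. The chemokine gene Ccl2 was at 1.04-fold (adjusted p = 0.514). Of 22 complement and acute phase genes 11 fell and 3 rose. C3, the central complement component, fell to 0.497, Masp1 and Cp to 0.488 and 0.516, Serping1 to 0.585, and Reg3g, a secreted lectin, rose 3.13-fold. With median centring 7 rose. Macrophages make Il1b and endothelial cells Vcam1, and the falls of their markers given above, 12 of 17 and 11 of 14, stand beside both lists. C1qa, C1qb, C1qc and Cd14 are on the complement list and among the macrophage markers. The part of either cell type in these falls was not tested.

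Matrix genes went both ways. Of 27 genes of collagens and their processing 11 rose and 5 fell (18.5%, near the share of all genes), and with median centring 3 fell. Col12a1, a collagen that bridges fibrils, rose 2.61-fold (log2 1.38, and 0.68 over all of its probe sets), Col8a1 1.86-fold, and the crosslinking enzymes Loxl1 and Plod2 1.88-fold and 1.59-fold, while Col15a1 fell to 0.62. Of 31 other matrix genes 15 fell and 9 rose. Fbln2, fibulin 2, rose 2.77-fold, Tnc, tenascin C, which appears in strained and injured tissue, 2.47-fold, and Fn1, fibronectin, 1.23-fold. Abi3bp, Fmod and Sparcl1 fell to 0.27, 0.306 and 0.381, and Nid2 to 0.425. Of the 16 cardiac fibroblast markers given above 8 fell and 2 rose, and the part of fibroblasts in the matrix changes was not tested. Of 23 proteases and inhibitors 6 rose (26.1%, near the share of all genes), led by Serpinb2 and Mmp16, with Plaur, the urokinase receptor, 1.93-fold and Timp1 1.61-fold higher. In the same list 10 fell, among them Mmp9 (0.399 of control) and Serpine2 (0.606).

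Of 14 genes of the insulin-like growth factor system 5 fell and 4 rose. Igfbp3, the main binding protein of plasma, fell to 0.255, Igf1 to 0.616 and Igfbp4 to 0.571, and the receptors Igf1r and Insr rose 1.4-fold and 1.45-fold. Igf2 fell to 0.582 on its brightest probe set, and over all of its probe sets the log2 fold change was -0.15. Of 24 vascular growth factor genes 10 fell and 5 rose (20.8%, near the share of all genes). Vegfd was at 0.328, Cxcl12 at 0.346 and Angpt2 at 0.459, while Vegfa, which defines the list, was at 0.993 (adjusted p = 0.917). With the filter on dim probe sets 3 rose. Endothelial cells make several of these factors and receptors, and their markers, which share Kdr, Flt1 and Tek with this list, moved with it: 11 of 14 fell, at a summed intensity of 4091 to 4326 at 48 h and 5173 to 6747 in controls. Their part in these falls was not tested.

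Of 37 cell cycle genes 7 rose (18.9%) and 4 fell (10.8%), which is near or below the shares of all genes, and 26 did not pass. Ccnd1, cyclin D1, rose 2.23-fold and Cdkn1a, the inhibitor p21, 2.18-fold, Cdkn1c, the inhibitor p57, fell to 0.415, and the proliferation marker Mki67 was at 0.882 (adjusted p = 0.295). The rises numbered 14 with median centring and 4 without replicate 1 or 2 of the controls or replicate 1 or 4 of the 48 h arrays, and over all probe sets of each gene 1 member fell. Of 22 apoptosis regulators 8 fell and 4 rose (18.2%, and 7 with median centring and 2 with the most variable probe sets), with Bcl2l11 (Bim) at 0.346 and Bak1 at 1.54-fold. Bim had a log2 fold change of -1.53, and of -0.63 over all of its probe sets. Of 18 genes of atrophy and autophagy 8 fell and 4 rose (22.2%, near the share of all genes, and 1 with the most variable probe sets). Pik3ip1, an inhibitor of phosphoinositide 3-kinase, fell to 0.378 and Sesn1 to 0.513, both known as targets of FoxO factors, and the ubiquitin ligase Trim63 (MuRF1) fell to 0.765. Of 18 clock genes 6 rose and 6 fell, with Noct at 3.03-fold, Bmal1 at 1.62-fold and Per3 at 0.544 of control. Of 29 genes of G protein regulation 12 fell and 4 rose, Rgs2, which damps signals of Gq receptors, at 3.03-fold and Rgs6 at 0.47. Of 18 retinoid genes 4 fell, with Aldh1a1 and Rarb beside Rxrg at 0.511 and 0.581 of control (22.2%, near the share of all genes), and 2 rose, but 1 without replicate 1 or 4 of the controls or replicate 1, 2 or 5 of the 48 h arrays. Of 13 genes of heme and iron 6 rose and 2 fell (15.4%, near the share of all genes), Hmox1 and Cp having the largest changes.

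The second day was then set against the first. Between 48 h and 24 h of stretch, 305 probe sets (0.983%) were called at 1.5-fold, 55 higher and 250 lower at 48 h. Of the genes 422 (2.97%) were higher and 814 (5.73%) lower by adjusted p. Replicate 1 of the 24 h arrays lay nearer to the controls than the other 4 in some genes named here, such as Cnn1 and Nppa. How often it did so over all genes was not counted. Without this array 245 probe sets were called, 29 higher and 216 lower. Of 37 interferon-stimulated genes 26 were lower at 48 h than at 24 h and 1 was higher (18 were lower without replicate 1 of the 24 h arrays), with a median log2 fold change against control of -1.0 at 48 h and -0.62 at 24 h. Of 21 calcium cycling genes 10 were lower at 48 h (6 without replicate 5 of the 48 h arrays), of 19 cardiomyocyte markers 8, of 17 macrophage markers 8 (summed intensity 4503 to 5498 at 48 h and 6716 to 7313 at 24 h) and of 14 endothelial markers 8 (5 without replicate 1, 3 or 5 of the 48 h arrays). Of 59 ribosome biogenesis genes 10 were higher at 48 h. The lists of natriuretic peptides and fetal genes and of aminoacyl-tRNA synthetases had 0 members that passed limma's test between the times. So had those of immediate early transcription factors, where 3 were higher at 48 h without replicate 4 of the 48 h arrays, and of proteasome subunits, where 2 were higher with the filter on dim probe sets. Nppa was 2.65-fold of control at 48 h and 2.61-fold at 24 h, a log2 difference of 0.02 (standard error 0.267, adjusted p = 0.981).

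Some genes that had not passed at 24 h differed at 48 h from both other groups. Myoglobin was at 1479, 1660.5, 1447, 1595 and 1899.7 at 48 h and 4088, 3772, 5040.3, 4072 and 4554 at 24 h (log2 difference -1.41, adjusted p = 3.84e-07), and at 24 h it had not passed against control (0.9 of control, adjusted p = 0.28). Myom2 was at 258.5, 162, 256, 351 and 233 at 48 h and 467, 581, 634, 605 and 626 at 24 h, where its level had been 1.01 of control (adjusted p = 0.951). Smtnl2, a smoothelin-like protein of muscle, had not passed at 24 h either (0.764 of control, adjusted p = 0.283) and was at 0.317 at 48 h. Among rises, Tgfbi, a matrix protein that TGF-beta induces, was at 2483, 2662, 2017, 1822 and 2314 at 48 h and 905, 1189.8, 969.8, 1649 and 1279.6 at 24 h, and against control it was 2.28-fold at 48 h and 1.19-fold at 24 h (adjusted p = 0.261). Isg20 was 1.04-fold of control at 24 h (adjusted p = 0.777), and Hist4h4, a histone H4 gene near the lowest intensities of the array, 1.01-fold (adjusted p = 0.969).

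Others went on in the direction of the first day. Cxcl13 was at 145, 108, 139, 161 and 179 at 48 h and 787, 414, 721, 488 and 599 at 24 h (log2 difference -2.02, adjusted p = 9.51e-06). Dhrs7c was 0.137 of control at 48 h and 0.423 at 24 h, Myl7 0.267 and 0.671, Rxrg 0.21 and 0.51, and Pgam2 0.213 and 0.49 in the same order of times. Mybl1 was at 1254.5, 1616, 1106, 1069 and 1314 at 48 h and 346.5, 483, 419.9, 573 and 512 at 24 h, 6.57-fold and 2.4-fold of control, the largest further rise (log2 difference 1.45). Ltbp1 was 2.88-fold at 48 h and 1.44-fold at 24 h, Tinagl1, a matrix protein related to tubulointerstitial nephritis antigen, 3.44-fold and 1.83-fold, Pxdc1 3.43-fold and 1.83-fold, and Cdh17, a cadherin, 3.4-fold and 1.86-fold. Agtr1a, at 389, 381, 272, 452 and 300.4 at 48 h and 828, 563, 610.5, 571 and 587 at 24 h, was lower at the later time (log2 difference -0.83, adjusted p = 0.00107). Both times share their 5 control arrays, and their fold changes are given side by side for that reason. The plot by time shows 12 of these genes.

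**Figure D4:**
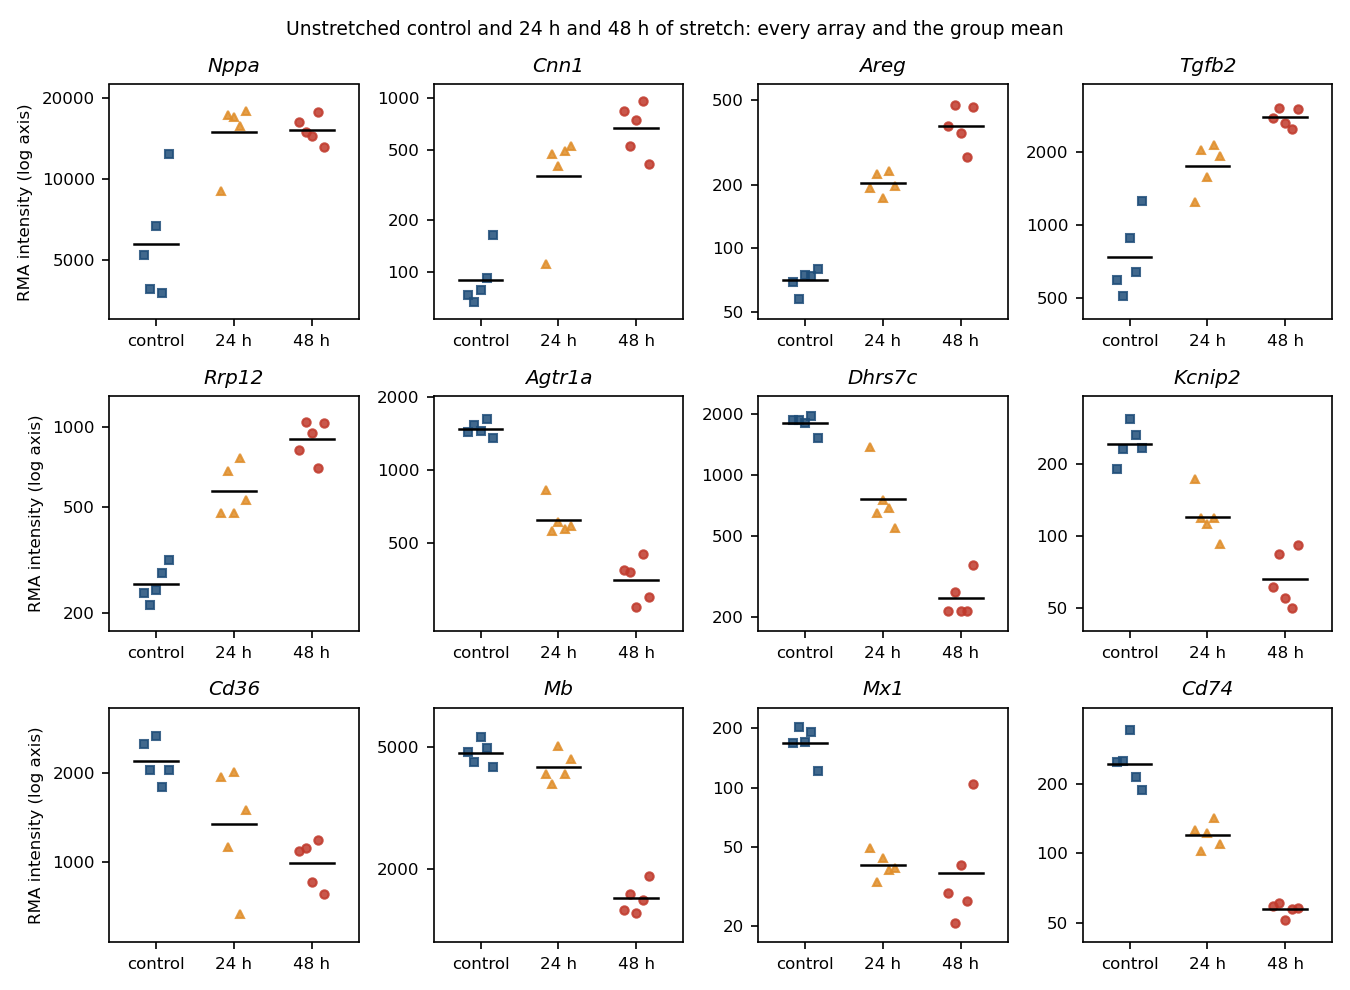
RMA intensity (log axis) of 12 genes in unstretched controls (squares), after 24 h (triangles) and after 48 h of stretch (circles), 5 arrays each, with the mean of the log2 values as a bar. Mb and Dhrs7c, among the genes taken for a lack of overlap between 48 h and 24 h, are lowest at 48 h. Nppa is as high at 24 h as at 48 h, and replicate 1 at 24 h lies within the range of the controls in Cnn1 and Nppa.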

How the data were processed

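RNA was labelled and hybridised to Affymetrix Rat Genome 230 2.0 arrays, 5 per group. The deposited intensities are RMA values that the authors made in GeneSpring on a linear scale. Only the set that holds the controls, 24 h and 48 h (15 arrays) was used. Whether RMA was run on this set alone is not given in the sources used here. RMA equalises the arrays, so a change shared by all RNA would not show. They were taken to log2 here. In this set 156 cells that a spreadsheet had turned into dates were restored as numbers, and 131 of them then fell between the lowest and highest remaining values of the probe set.

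After removal of 57 control probe sets, limma 3.58.1 in R 4.3.3 fitted a mean per group over the 15 arrays, with Benjamini-Hochberg adjustment over 31042 probe sets. Of the probe sets, 20826 had 1 gene symbol, 436 several and 9780 none in the platform annotation used here, and a gene was read by its brightest probe set. Corin and Ednra had no symbol there and were named through the study's list of array IDs. Promoters were RefSeq windows. Of 1238 list entries 1131 were measured, and the rest were not analysed here.

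The gene lists and members were chosen with earlier results of these data known. Named were the 15 largest rises and falls with groups apart, in each list the largest changes, defining members and those against the majority, the genes of a table of the study, and the 10 largest differences each way between 48 h and 24 h. The alternatives were the methods' one-way analysis of variance, median centring, quantile normalization, a filter at a mean log2 value of 6, array weights, a mean-variance trend, a replicate block, date cells left out, only the compared groups, other choices of probe set, and each array left out. Sums of markers without Des or Cd74 were added after the data were seen. The number of arrays limits the precision.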

Additional observations from a re-analysis of the deposited data

Results flagged for a closer look

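Single arrays stood apart from the other 4 of their group in 25 of 580 groups of 5 arrays (290 named genes, 48 h and control). Chance would mark about 1 in 20 groups, and the count is not above that rate. In controls the lowest array was apart in 5 interferon-stimulated genes, with 190.7 for Ddx60, 804.7 for Rtp4, 1727 for Isg15, 920.2 for Mx2 and 390.8 for Oas1a. In all 5 this was replicate 5, the control nearest to stretched cells in many genes. The lowest control was also apart for Ckmt2 (509.6), Gdf15 (151.7), Hspa5 (6869.8), Igf1 (4212), Myh11 (110.7), Polr1a (240.2) and Slc2a1 (740.5). The highest control was apart for Atf3 (280.3), B2m (13208), Casq1 (654.2), Ddit3 (919.7), Plod2 (2243), Srm (559.5) and Tagln (1370.6). At 48 h the highest array was apart for Il6 (224.1), Gdf15 (1597), Insr (320.0), Pecam1 (142.8), Pln (12201) and Slc2a4 (380.7).

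The effect of 48 h differed from that of 24 h, by limma's adjusted p for the difference, in 32 of the 51 genes taken for their size of change, for that difference or from the study's table, and in 137 of all 290 named genes. Genes taken for that difference had to differ, and many others were named for a large change at 48 h. Of all 14217 genes, 422 (2.97%) were higher and 814 (5.73%) lower at 48 h than at 24 h by the same test. Further falls on the second day, as log2 differences of 48 h minus 24 h, were -2.02 for the chemokine Cxcl13, -1.63 for Dhrs7c, -1.41 for myoglobin, -1.33 for Myl7, -1.28 for Rxrg, -1.27 for Smtnl2 and -1.24 for Myom2. Among interferon-stimulated genes they were -1.22 for RT1-T24-3, -1.20 for Rtp4, -0.95 for Ddx60 and -0.93 for Usp18. In the remaining genes they were -1.20 for Pgam2, -1.17 for Efhd1, -1.15 for Cmbl, -1.09 for Lrrc10, -1.08 for Dgkb, -0.93 for Prnd, -0.89 for Fmo2 and -0.83 for the angiotensin receptor Agtr1a. Further rises were 1.45 for Mybl1, 1.00 for Ltbp1, 0.93 for Tgfbi, 0.93 for Abhd2, 0.91 for Areg, 0.91 for Tinagl1, 0.90 for Pxdc1, 0.88 for Hist4h4, 0.87 for Cdh17, 0.81 for Isg20, 0.78 for Bdkrb2, 0.68 for Il1rl1 and 0.49 for Mmp16.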

How the results depend on the processing

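The count of probe sets past 1.5-fold at 48 h, 2316, lay between 2057 with the filter on dim probe sets and 2424 with array weights, and between 2243 and 2452 with single arrays left out. At 2-fold the range was 683 to 777, for genes at 1.5-fold 1247 to 1375, for 24 h against control 819 to 1022, and for 48 h against 24 h 245 to 373. At 2-fold, 35 probe sets differed between 48 h and 24 h, 31 to 54 with single arrays left out, and 54 without replicate 4 of the 48 h arrays. With median centring 7630 probe sets were higher and 4121 lower by adjusted p, against 5238 higher and 4971 lower without it. Among genes at 1.5-fold 671 were higher and 644 lower with it, against 544 higher and 748 lower.

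Of the named genes only Nrg1, which passed with the other choices of probe set alone, changed direction, with log2 fold changes of 0.19 over all of its probe sets and 0.46 on the most variable one against -0.06 on the brightest. Cacna1c, Hars1, Myh7 and Gja1 lost their call with the most variable probe set. Gja1 lost it also with median centring and over all of its probe sets, and Casq1 lost its call in 12 settings. Genes left undescribed because their call hung on a setting included Ttn, Eno1, Cs, Col3a1, Csf1r, Nfkbia, Flnc, Mxi1, Timp3 and Wars1, so stability among the named genes is partly a matter of choice. Edn1, Acta1, Ankrd1, Myl2, Tnnt2, Col1a1, Gata4, Ltv1 and Nop10 passed in some settings only, for instance Edn1 without control replicate 5. With the replicate block 2315 probe sets and 1291 genes passed 1.5-fold against control and 304 probe sets against 24 h. Same-numbered arrays of 48 h and control did not deviate together (correlations -0.393 to 0.102). Differently numbered arrays of these groups reached -0.575 and 0.446. Such correlations over all probe sets cannot decide whether samples were paired by culture, because differences between arrays that no pairing explains dominate them.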
